A study of Drosophila melanogaster with 2 samples.

Results

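One-sided promoter peaks of tagged Pleiohomeotic (Pho) were the optimal peaks whose summit, the base of highest signal, lay within 500 bp of protein-coding transcript starts on 1 strand only. Of 4293 optimal peaks, 1574 (36.7%, 95% Wilson interval 35.2 to 38.1) met this rule. Another 987 peaks (23.0%) had coding starts on both strands within 500 bp, and 1732 (40.3%) had none. One-sided peaks made up 61.5% of the 2561 peaks at promoters (59.6 to 63.3). The chromatin came from whole Drosophila melanogaster embryos of mixed sex, aged 0 to 24 h, of a transgenic line that stably carries Pho with GFP at its C terminus. Sonication sheared it to fragments of 200 to 800 bp, and an anti-GFP antibody served for the precipitation. There was 1 group, with biological replicates 3 and 4, and the optimal list came from their pooled reads. Both replicates and the pool shared 1 control file, no library of untagged embryos was used here, and whole embryos mix all cell types and stages. The number of reads per library is not given in the files, so depth is unknown, and the intervals cover counting error over peaks only. Peaks are not replicates, so no test between sets of peaks was made.

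Pho is a zinc finger protein of the Polycomb group that binds DNA and helps to bring Polycomb complexes to their target genes. The core of its binding site reads GCCAT. A promoter that serves genes on both strands can have a start on either side of a summit, whereas at a promoter that serves 1 strand upstream and downstream can be told apart. Core promoters in Drosophila carry further short words: TATCGATA is bound by the factor DREF, GGTCACACT by the factor M1BP, and TATAAA is the TATA box. Many broadly expressed genes have one of the DREF and M1BP words near the start, while the TATA box is typical of genes with narrow, regulated expression.

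The windows below show the DNA at the strongest one-sided peaks and at strong ones that held each word within 50 bp of the summit. Each is printed in the direction of the gene, taken from the RefSeq genome, release 6 (dm6), and ends at most 20 bases after the start. Where the sequence at a stronger peak was not printed, the next in rank is shown. In the windows of CG14100, chr3L:19590552-19590672 on the minus strand, and of Ugalt, chrX:2703832-2703944 on the minus strand, capitals mark the 5 bases centred on the summit. In the others capitals mark the word, in the gene's own direction or as its reverse complement.
CG14100: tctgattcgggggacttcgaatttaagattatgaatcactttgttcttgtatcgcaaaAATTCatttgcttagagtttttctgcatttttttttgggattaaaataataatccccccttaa
Ugalt: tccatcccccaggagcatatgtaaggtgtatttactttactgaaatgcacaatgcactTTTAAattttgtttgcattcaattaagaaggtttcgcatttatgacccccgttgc
eEF1gamma, TATCGATA: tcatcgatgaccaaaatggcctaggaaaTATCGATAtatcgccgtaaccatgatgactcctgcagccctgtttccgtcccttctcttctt
RpL26, TATCGATA: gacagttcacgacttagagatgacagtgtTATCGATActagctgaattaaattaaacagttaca
Rnp4F, GGTCACACT: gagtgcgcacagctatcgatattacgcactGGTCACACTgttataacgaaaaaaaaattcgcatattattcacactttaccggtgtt
CrebB, GGTCACACT: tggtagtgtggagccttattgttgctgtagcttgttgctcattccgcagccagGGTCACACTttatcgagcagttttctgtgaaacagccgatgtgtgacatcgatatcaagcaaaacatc
CG7668, AGATGGC as its reverse complement: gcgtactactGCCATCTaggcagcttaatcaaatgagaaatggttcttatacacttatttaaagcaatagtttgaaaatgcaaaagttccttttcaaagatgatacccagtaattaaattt
Hsp27, AGATGGC: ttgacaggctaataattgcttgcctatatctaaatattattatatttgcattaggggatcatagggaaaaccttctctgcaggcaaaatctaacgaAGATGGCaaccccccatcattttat
Fhos, GCCAT: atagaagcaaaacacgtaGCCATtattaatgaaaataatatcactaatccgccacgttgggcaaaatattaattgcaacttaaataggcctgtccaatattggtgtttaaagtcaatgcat
CG8036, GCCAT as its reverse complement: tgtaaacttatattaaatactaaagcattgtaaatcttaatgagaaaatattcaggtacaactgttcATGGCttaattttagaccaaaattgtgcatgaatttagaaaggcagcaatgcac
CG31145, TATAAA as its reverse complement: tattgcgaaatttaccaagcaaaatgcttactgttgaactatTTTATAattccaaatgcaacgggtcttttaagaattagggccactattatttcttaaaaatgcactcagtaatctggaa
Rtnl1, TATAAA as its reverse complement: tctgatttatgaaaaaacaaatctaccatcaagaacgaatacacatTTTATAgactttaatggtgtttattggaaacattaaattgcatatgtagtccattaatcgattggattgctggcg

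These windows lie at chr3R:29220103-29220192 (plus strand) for eEF1gamma, chr3L:18898832-18898895 (plus) for RpL26, chrX:5322676-5322762 (minus) for Rnp4F and chrX:18370827-18370947 (plus) for CrebB. Those of CG7668 and Hsp27 are chr3L:20002564-20002684 and chr3L:9383862-9383982, both plus. Those of Fhos and CG8036 are chr3L:8766115-8766235 and chr3R:8669307-8669427, both plus, and those of CG31145 and Rtnl1 are chr3R:23669794-23669914 and chr2L:4997585-4997705, both minus. The windows at the 2 strongest peaks held none of the 8 words searched, and 828 of the 1574 one-sided summit windows, 50 bp to each side of the summit, held none either. The TATCGATA word of eEF1gamma, a translation elongation factor, began at -41 bp from the start and that of RpL26, a ribosomal protein gene, at -14 bp. The GGTCACACT word of Rnp4F, a splicing factor, began at -36 bp. The GCCAT words of Fhos and CG8036 lay farther out, at -309 and -244 bp, and the TATAAA words of CG31145 and Rtnl1 at -213 and -278 bp, beyond the place of a TATA box.

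Summits at one-sided promoters lay mainly upstream of the start. The median offset from the nearest start, counted in the direction of the gene with negative values upstream, was -96 bp, with quartiles of -212.75 and -22.25 bp. The summit was upstream at 1274 of 1574 peaks (80.9%, 78.9 to 82.8), downstream at 297 and on the start itself at 3. Between 1 and 100 bp upstream lay 32.4% of the peaks and between 201 and 500 bp upstream 27.1%, against 10.8% at the start or up to 100 bp downstream of it and 8.26% beyond that. The distribution is therefore lopsided around the start, with a long upstream arm.

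At the peaks from pooled reads the replicates' summits lay alike, in part because of the matching. A replicate's summit counted only within 100 bp of the pooled one, and its offset was taken from the same start. By the summits of replicate 3 the median offset was -95 bp and 80.5% of 1541 peaks were upstream, and by those of replicate 4 it was -94 bp and 79.8% of 1509. In the strongest entries of each replicate's own list, as many as in the optimal list, the values differed more. There 81.3% of one-sided summits were upstream in replicate 3 (median -98 bp) and 76.8% in replicate 4 (-86 bp). Both replicates had a summit within 100 bp of the pooled one at 1478 peaks (93.9%), where their summits lay a median of 22 bp apart and the 95th percentile was 89 bp. Both replicates put the summit on the same side of the start at 93.2% of these peaks. The signal values that the authors deposited for these peaks ranked alike in the replicates (Spearman rho 0.739, Pearson r of log2 values 0.826, over 1478 peaks, as a description; both libraries share the control and the pool).

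**Figure D1:**
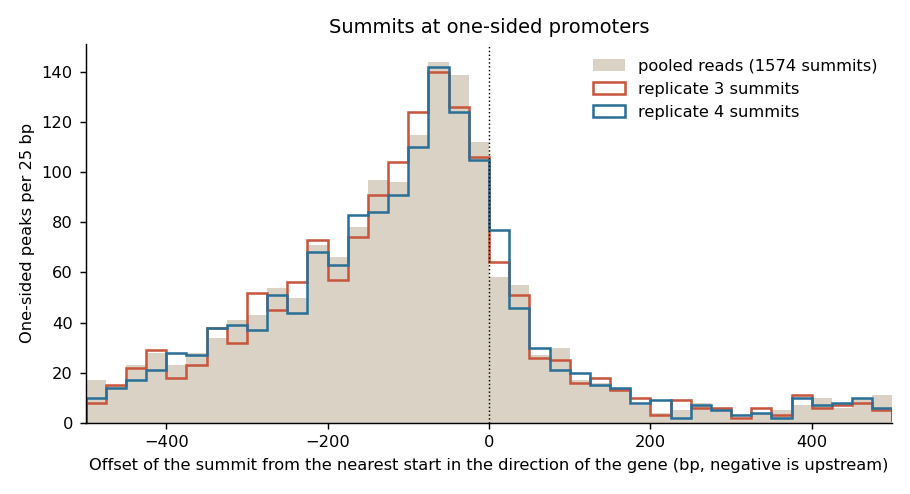
Number of one-sided peaks per 25 bp of offset from the nearest protein-coding start, for the 1574 summits from pooled reads (filled) and for the summits of replicates 3 and 4 (lines). Most summits lie left of the start, 80.9% by pooled reads. The replicates' curves follow each other, in part because their summits were matched within 100 bp of the pooled ones.

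Which start is nearest depends on the annotation, and the lean upstream was there with a single start to choose from. At the 1252 peaks with 1 distinct start within 500 bp the median offset was -119 bp and 83.8% were upstream. At the 662 peaks of genes with 1 annotated start it was -97 bp and 86.4%. Genes on the plus strand (716 peaks, median -100 bp, 81.4% upstream) and on the minus strand (858 peaks, -89.5 bp, 80.5%) gave like values. Peaks with starts on both strands had a median of -61 bp to the nearest start and 82.0% were upstream of it, but there a start on the other side can bound the distance.

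By annotation, 802 one-sided summits (51.0%) lay upstream of the start in intergenic sequence and 381 (24.2%) upstream of an alternative start, inside the same gene. A further 91 (5.78%) lay upstream inside another gene. The 5' UTR held 215 (13.7%), the first intron 67 (4.26%), a coding exon 14 (0.889%) and later introns 4. Peaks with the summit in the 5' UTR ranked lower, at a median of 2890 of 4293, against 2031 for intergenic upstream peaks. The strongest peak in a first intron was at CG31612 (rank 177, offset 495 bp), and the strongest in a coding exon was at Hakai, an E3 ubiquitin ligase (rank 2191, offset 114 bp).

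The strength of one-sided peaks stood between the other classes. Ranked by signal within the optimal list, with 1 the strongest, their median was 2164 (signal 144), against 1772 (163) for both-strand promoter peaks and 2402.5 (135) for peaks with no coding start. Replicate 3 gave medians of 2103, 1705 and 2392 for the same classes, and replicate 4 gave 2147, 1749 and 2320. Divided into quintiles of all optimal peaks by rank, the one-sided share stayed between 35.4% and 38.1%. Over the same quintiles the both-strand share went from 29.9% in the strongest to 16.7% in the weakest, and the share with no start from 32.0% to 46.7%. One-sided peaks were 11 of the 25 strongest optimal peaks, 42 of the 100 strongest and 185 of the 429 strongest (43.1%, 38.5 to 47.9).

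Stronger one-sided peaks lay farther upstream. From the strongest quintile of the one-sided peaks (315 peaks, ranks 3 to 823) to the weakest (314 peaks, ranks 3440 to 4291), the median offset was -158, -100, -93, -64 and -55 bp. The summit was upstream at 89.8% of the strongest quintile (86.0 to 92.7), then at 85.1%, 84.8% and 74.3%, and at 70.7% of the weakest (65.4 to 75.5). The share more than 200 bp upstream was 36.8% in the strongest quintile and 22.9% in the weakest. Within 50 bp of the start were 12.1% of the strongest quintile and 29.3% of the weakest. The quartiles overlapped widely (-253.5 and -77 bp against -171.5 and 13 bp), and Spearman's rho of rank and offset was 0.221 over 1574 peaks, as a description.

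The order held when the start could not be chosen, and in part when the replicates were read alone. In genes with 1 annotated start the medians were -156, -119, -79.5, -75.5 and -55 bp from the strongest quintile to the weakest, and at alternative starts -190, -131.5, -128, -87 and -60 bp. Ranked and placed by replicate 3, they were -166, -89.5, -93, -71 and -59.5 bp. By replicate 4 they were -160, -91.5, -83.5 and -60 bp, and -80 bp in the last, which reaches down to rank 27989 of that library. With ranks from replicate 3 and summits from replicate 4, the strongest quintile had a median of -167 bp and the weakest -55 bp. With ranks from replicate 4 and summits from replicate 3, the medians were -159, -94, -81.5, -61 and -82 bp, so by the ranks of replicate 4 the order broke at the weakest quintile with either library's summits. The base composition moved with rank: the median G and C content of the summit window was 32.7% in the strongest quintile and 42.6% in the weakest. TATAAA was in 21.9% of windows in the strongest quintile (17.7 to 26.8) and 10.8% in the weakest (7.85 to 14.8), and GGTCACACT in 0.635% and 4.46%. By the ranks of replicate 4, with the windows still on the summits from pooled reads, the weakest quintile had a median G and C content of 39.6%. TATAAA was in 16.6% of its windows, above the 8.61% of the quintile before it. The part of composition in the order of offsets was not tested.

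**Figure D2:**
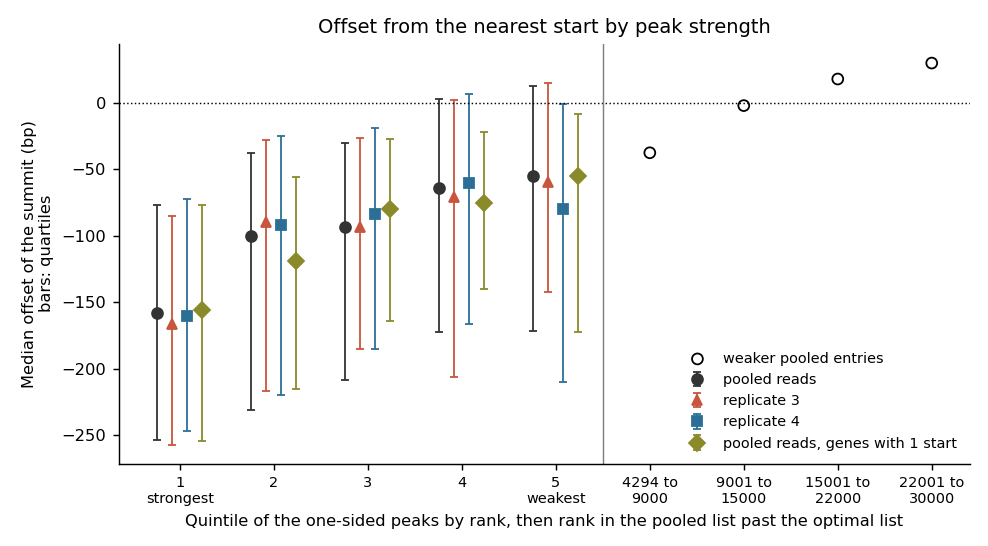
Median offset of the summit (y axis, bp, bars are quartiles) by quintile of one-sided peaks from strongest to weakest, by pooled reads, by each replicate's own ranks and summits, and in genes with 1 start. Open circles, right of the line, are one-sided entries of the pooled list past the optimal list, without bars. The medians lie between -166 and -156 bp in the strongest quintile and approach the start in weaker ones, except that replicate 4 has -80 bp in the weakest, after -60 bp.

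The 25 strongest one-sided peaks showed the same lean. Of these, 23 were upstream by pooled reads and in each replicate, at a median offset of -172 bp, and 10 lay more than 200 bp upstream. The lowest rank among them was 80 in replicate 3 and 78 in replicate 4, and the replicates' offsets differed by at most 33 bp. The strongest was at CG14100, chr3L:19590416-19590828, with a signal of 1322 in replicate 3 and 999 in replicate 4 and offsets of -83 and -88 bp. The next was at Ugalt, a UDP-galactose transporter, chrX:2703669-2704111, with signals of 1216 and 1010 in replicates 3 and 4 and offsets of -21 and -32 bp. The mitochondrial ribosomal protein gene mRpL41 followed, with signals of 1084 and 803.7 and offsets of -141 and -142 bp. These 3 stood at ranks 3 to 5 of all optimal peaks, and all 3 lay at the first or only start.

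The exceptions were downstream. At PNPase, which encodes a polynucleotide phosphorylase of mitochondria, the summit lay 78 bp downstream in replicate 3 and 82 bp in replicate 4, with signals of 787 and 587. At GstE13, a glutathione S-transferase, it lay 60 and 48 bp downstream, with signals of 658 and 490. Both summits are in the 5' UTR. Signals of the replicates are on each library's own scale and are not compared with each other.

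Among the 25, 11 peaks lay at an alternative start. The strongest were at px, a regulator of wing vein pattern (rank 13, offsets -176 and -209 bp in replicates 3 and 4, start 47966 bp from the first), and at PNPase (712 bp from the first). Next came larp, an RNA-binding protein of the La-related family, with -326 bp in both replicates at a start 10176 bp from the first, and gish, a casein kinase I, with -167 and -154 bp at a start 8437 bp from it. CG1888 had -226 and -218 bp at a start 1177 bp from the first. The farthest upstream of these 11 was ph-p, a Polycomb group gene whose protein is a subunit of the Polycomb repressive complex PRC1. Its offset was -461 bp in replicate 3 and -476 bp in replicate 4, with signals of 702 and 576, at a start 1516 bp from the first.

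The others of the 25 were varied in role. They included the transcription factor genes Atf3 (rank 25, offset -226 bp) and Sox14 (rank 52, -259 bp), amon, which encodes a prohormone convertase (rank 38, -205 bp), and Sesn, which encodes a sestrin (rank 60, -254 bp). eIF6, a translation initiation factor gene, had its summit inside another gene (rank 30, -107 bp). Fkbp14, a peptidyl-prolyl isomerase of the endoplasmic reticulum (rank 35, -124 bp), and MFS10, a transporter of the major facilitator superfamily (rank 34, -157 bp), had it at alternative starts. So did Msp300, a giant protein that links nuclei to the cytoskeleton (rank 63, -336 bp), and CG1607 (rank 59, -134 bp). The remaining 6 were Rtnl1 (rank 42, -264 bp, at an alternative start), CG31145 (rank 16, -195 bp), CG1635 (rank 41, -132 bp), CG18549 (rank 46, -110 bp), nebu (rank 50, -170 bp) and CG17896 (rank 40, -497 bp).

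**Figure D3:**
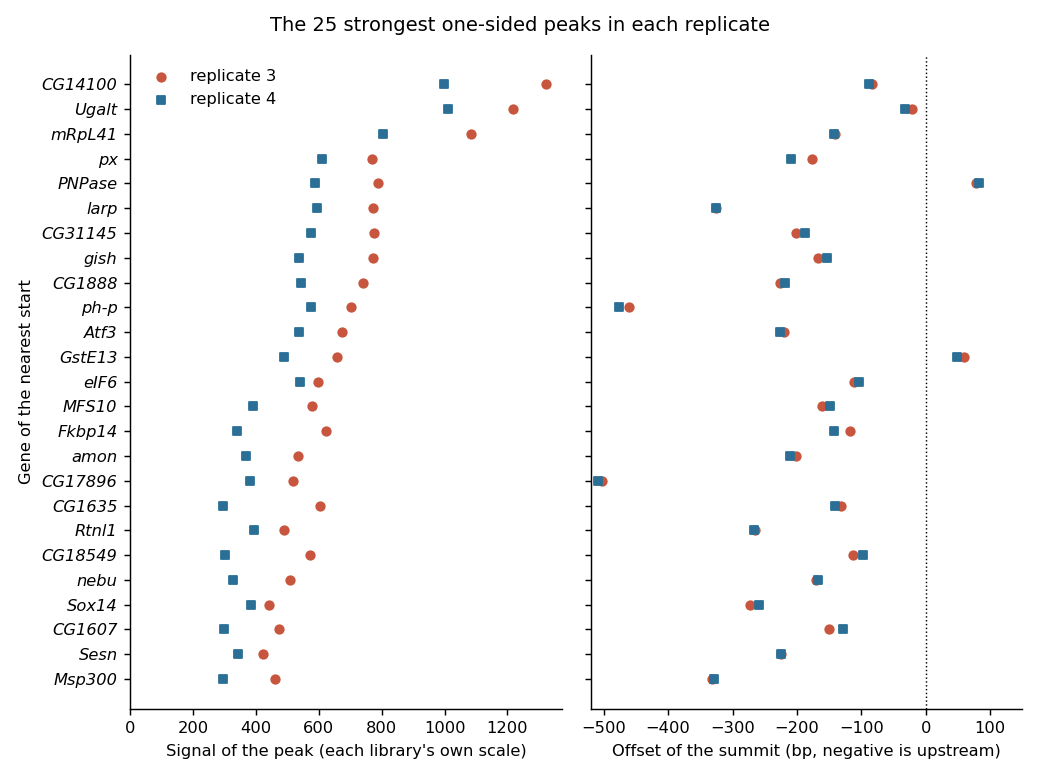
Signal (left, each library's own scale) and offset of the summit from the nearest start (right, bp) in replicates 3 and 4 for the 25 strongest one-sided peaks, strongest at the top. All but PNPase and GstE13 lie upstream of the start in both replicates, and the replicates differ by at most 33 bp.

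Of the one-sided peaks, 31.6% (498) lay at a start other than the gene's first. Of the 1574, 662 (42.1%) were at the only start of a gene, 414 (26.3%) at the first of several, 403 (25.6%) at an alternative start over 500 bp from the first and 95 (6.04%) at one within 500 bp of it. Alternative starts over 500 bp away had the longest upstream reach, with a median offset of -172 bp and 81.6% upstream, at a median rank of 2051. First starts of several had -71 bp and 77.5%. Alternative starts near the first had -10 bp and 54.7%, where several starts surround the summit.

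Among genes with 2 or more starts, 414 of 912 peaks were at the first (45.4%, 42.2 to 48.6), while first starts made up 33.3% of all starts of the same genes and 39.5% of the starts of all such genes. A summit upstream of several starts was given to the most upstream of them, while every start counts in the shares of starts. The shares of peaks and of starts are therefore not on a like basis. In 575 genes with starts over 500 bp apart and a one-sided peak, 294 (51.1%) had peaks at later starts only, 235 (40.9%) at the first start region only and 46 (8%) at both. Of the 294, 66 had another optimal peak, of any class, within 500 bp of the first start. The distance from the first start to the alternative one had a median of 3294 bp and a maximum of 160100 bp.

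The 1574 peaks fell on 1508 distinct starts, 66 of them with 2 peaks, and on 1415 genes, which are 10.1% of the 13945 protein-coding genes. Of these genes 1281 had 1 one-sided peak, 117 had 2, 11 had 3 and 6 had 4 or more. Those 6 were Rtnl1 with 6 peaks and Ptpmeg2, Svil, bun, dnc and larp with 4 each. Overlapping entries counted as separate peaks here. In Rtnl1, bun, dnc and larp, 2 of the peaks overlapped each other and shared their nearest start. Merged, they would leave bun, dnc and larp with fewer than 4. With overlapping peaks merged over the whole list, 1492 one-sided peaks were left at 1404 genes. Rtnl1 encodes a reticulon, which shapes the endoplasmic reticulum, and its peaks lay at 5 starts along the gene. The strongest, at -264 bp from a start that lies 12339 bp from the first (rank 42), had signals of 489 in replicate 3 and 393 in replicate 4. The peak at the first start of Rtnl1 was weaker (rank 2200, -60 bp, signals of 81.2 and 59.8).

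In the other 5 genes too, the strongest peak lay at a later start. Ptpmeg2, a protein tyrosine phosphatase gene, had it at -196 bp from a start 18521 bp from the first (rank 126), while the peak at the first start, 141 bp downstream of it, ranked 1628. dnc encodes a cyclic AMP phosphodiesterase. Its 4 peaks had offsets of -277, -346, -137 and -324 bp from starts 118841, 79628, 79628 and 152967 bp from the first (ranks 93, 102, 845 and 1488), with none at the first start. In larp the strongest ranked 15 and the one at the first start 1276 (-74 bp). In bun, which encodes a transcription factor of the TSC-22 family, the strongest ranked 610, at a start 63022 bp from the first, and the one at the first start ranked 3938. Svil, the supervillin gene, had none at the first start, and its strongest ranked 1073 (-188 bp, 116883 bp from the first). These genes were named for their number of peaks, which needs several starts, so the alternative starts in them follow in part from the choice.

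**Figure D4:**
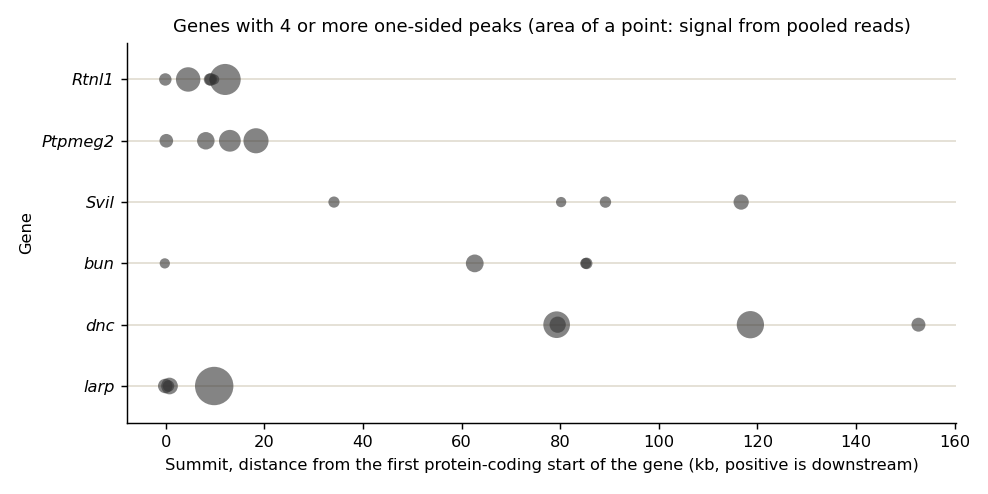
Position of the summits of one-sided peaks in kb from the first protein-coding start of the gene, for the 6 genes with 4 or more, with point area proportional to signal from pooled reads. Overlapping entries, found in Rtnl1, bun, dnc and larp, are separate points. In Rtnl1, Ptpmeg2, larp and bun the strongest peak lies at a later start and not at the first, and dnc and Svil have none at the first.

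Words were searched on both strands in the window of 50 bp to each side of each summit and, beside it, in windows of the same width 200 to 300 bp upstream and downstream in the direction of the gene. All protein-coding genes served as background, with the window on the first start and with the window centred at -96 bp from it, the median offset of the peaks. GCCAT was at 17.3% of one-sided summits (272 of 1574, 15.5 to 19.2), at 14.8% of both-strand summits and at 15.0% of summits with no coding start. It was in 12.6% of upstream flanks (11.0 to 14.3), 15.8% of downstream flanks (14.0 to 17.6), 15.5% of all genes' upstream windows and 17.3% of their start windows. The share at summits was thus above that of the upstream flank beyond counting error. Its interval overlapped those of the downstream flank and of the upstream windows (14.9 to 16.1) and start windows of all genes. It also overlapped those of both-strand summits (12.7 to 17.1) and of summits with no coding start (13.4 to 16.8). In windows on the starts nearest to one-sided peaks GCCAT was at 16.3% (14.6 to 18.2), which overlapped too. The longer word AGATGGC, whose reverse complement contains GCCAT, was at 2.35% of summits (1.71 to 3.22), against 1.72% of both-strand summits and 2.37% of summits with no coding start (1.75 to 3.20). It was in 0.381% of upstream flanks (0.175 to 0.829), 0.635% of downstream flanks (0.345 to 1.17), and 1.10% and 1.44% of all genes' upstream and start windows. In windows on the starts nearest to one-sided peaks it was at 1.97% (1.39 to 2.78), an interval that overlapped that of the summits. The strongest peaks with AGATGGC were at CG9399 (rank 319, offset 34 bp), CG7668 (rank 475, -112 bp) and CG10600 (rank 514, -36 bp).

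GCCAT leaned to the gene's own direction. Of 306 matches at one-sided summits, 189 (61.8%, 56.2 to 67.0) read GCCAT in the direction of transcription, against 50.2% in the upstream flanks (43.7 to 56.7), 55.2% in the downstream flanks (49.3 to 60.9) and 49.4% in the upstream windows of all genes (47.4 to 51.4). In windows centred on the starts themselves the share was 63.1% for the starts nearest to one-sided peaks (57.3 to 68.4) and 56.3% for the first starts of all genes (54.4 to 58.1). The matches lay at a median of -66 bp from the start. Peaks with GCCAT had a median rank of 1989.5 and an offset of -77.5 bp, against 2183.5 and -99.5 bp for those without it. Among the strongest peaks with the word were mRpL41, GstE13 and MFS10.

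The core promoter words differed in place. TATCGATA was at 69 one-sided summits (4.38%, 3.48 to 5.51), against 7.09% of both-strand summits (5.65 to 8.87), 1.27% of upstream and 0.191% of downstream flanks, and 2.83% and 5.56% of all genes' upstream and start windows. In windows on the starts nearest to one-sided peaks it was at 5.27% (4.27 to 6.49). Peaks with it lay at -34 bp, against -102 bp for those without, and 89.9% were at the first or only start, against 67.4%. A word counted only within 50 bp of the summit, and TATCGATA was more common in all genes' start windows than upstream. The offset of peaks with the word therefore follows in part from the search. The strongest were at Alg3, a mannosyltransferase of N-glycan synthesis (rank 164, offsets of -68 and -71 bp in replicates 3 and 4), CG1827 (rank 292, -152 and -136 bp) and eEF1gamma (rank 293, -35 and -9 bp).

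GGTCACACT was at 33 one-sided summits (2.10%, 1.5 to 2.93), against 2.84% of both-strand summits, 0.445% of upstream and 0.318% of downstream flanks, and 1.16% and 4.37% of all genes' upstream and start windows. In windows on the starts nearest to one-sided peaks it was at 5.21% (4.22 to 6.42), above its share at the summits. Peaks with it were weak, at a median rank of 3146, against 2127 without it. The strongest were at the ribosomal protein gene RpL37A (rank 711, offset 5 bp), at Ube4B, a ubiquitin chain factor (rank 790, -68 bp), and at Rnp4F (rank 991, -6 bp). TATAAA was at 14.0% of one-sided summits (12.4 to 15.8), against 17.9% of both-strand summits, 18.4% of upstream and 9.47% of downstream flanks (8.12 to 11.0), and 18.2% and 17.0% of all genes' upstream and start windows. In windows on the starts nearest to one-sided peaks it was 8.77%. Its matches lay at a median of -166 bp from the start, with 52.9% in the gene's direction (47.0 to 58.7). The strongest with the word were at CG31145, eIF6 and Fkbp14. At the first starts of all genes 71.6% were in the gene's direction. Shares of a word follow base composition, and the median G and C content was 39.6% at one-sided summits, against 36.6% at both-strand summits, 36.6% in upstream flanks, 47.0% in downstream flanks, and 36.6% and 43.6% in all genes' upstream and start windows. Its part in these shares was not tested.

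Genes of the cytoplasmic ribosome stood highest among the gene lists. Of 86 genes for cytoplasmic ribosomal proteins, 36 (41.9%, 32.0 to 52.4) had a one-sided peak, beside 10.1% of all protein-coding genes, and 31 (36.0%) had a peak at a both-strand promoter, beside 13.3% of all protein-coding genes. Taking as many of the strongest entries of 1 replicate alone gave 36 genes in replicate 3 and 35 in replicate 4. Their 37 peaks lay close to the start, at a median of -28 bp (range -138 to 95), and 26 of 37 were within 50 bp of it (70.3%), beside 23.2% of all one-sided peaks. By the summits of replicate 3 the median was -20 bp and by those of replicate 4 -31 bp. The strongest were RpL23A (rank 117, -106 and -105 bp in replicates 3 and 4), RpL17 (rank 367, -76 and -61 bp), RpL11 (rank 402, -51 and -58 bp) and RpL22 (rank 430, -52 and -72 bp). GCCAT was at 11 of the 37 peaks, TATCGATA at 7 and GGTCACACT at 3. RpL10 and RpL10Aa had no one-sided peak.

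Most other groups of basic cell functions had more genes at both-strand than at one-sided peaks, as did all protein-coding genes together (1858, 13.3%, beside 1415, 10.1%), where 1 both-strand peak can count for several genes. The exception was the translation initiation factors. Of 73 mitochondrial ribosomal protein genes, 4 had a one-sided peak (5.48%, 2.15 to 13.3) and 33 a both-strand one (45.2%). The 4 were mRpL41, mRpL4 (rank 1079), mRpL10 (rank 2335) and mRpL13 (rank 3375). The proteasome had 2 of 32 genes at one-sided and 10 at both-strand peaks, aminoacyl-tRNA synthetases 4 and 11 of 35, the V-ATPase, a proton pump, 3 and 9 of 33, and Mediator, a coactivator complex, 3 and 8 of 25. For oxidative phosphorylation the counts were 9 and 16 of 84, and for translation initiation factors 7 and 6 of 44. In the strongest entries of replicates 3 and 4 alone, initiation factors had 8 and 4 genes, oxidative phosphorylation 6 and 4, and the V-ATPase 3 and 5, so these small counts moved with the library. Their one-sided shares, from 5.48% to 15.9%, had intervals that all held the 10.1% of all genes.

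Genes of the Polycomb group, the class of repressors Pho belongs to, had one-sided peaks at 4 of 20 (20%, 8.07 to 41.6), beside 10.1% of all protein-coding genes, and at 5 and 3 in the strongest entries of replicates 3 and 4 alone. In the optimal list these 4 genes held 6 peaks, 3 of them at ph-p. Of the 6 peaks 3 were upstream, and the offsets went from -461 to 397 bp by pooled reads. The genes were ph-p, Pc (rank 2600, -88 and -92 bp in replicates 3 and 4), whose protein binds methylated histone H3, Su(z)2 (rank 2630, 113 and 69 bp) and esc (rank 3056, -76 and -44 bp), whose protein is a subunit of the Polycomb repressive complex PRC2. In the list named for the trithorax group, known mainly but not only as activators that oppose the Polycomb group, 3 of 18 genes had a one-sided peak. They were Trl, the GAGA factor gene (rank 198, 132 and 100 bp), kis, a chromatin remodeller gene (rank 1426, -119 and -80 bp), and psq (rank 1611, -109 and -59 bp). In the list named for factors of housekeeping promoters and insulators, 2 of 17 genes had one, BEAF-32 (rank 1541) and msl-1 (rank 3065). In the strongest entries of replicates 3 and 4 alone, the trithorax list had 3 and 4 genes and the housekeeping and insulator list 2 and 4. The intervals of the one-sided shares of all 3 lists held the 10.1% of all genes. At both-strand peaks were 5 of 20 Polycomb group genes (25%), 5 of 18 trithorax group genes (27.8%) and 5 of the 17 in the third list (29.4%), beside 13.3% of all protein-coding genes.

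Hox genes and patterning genes, the classic targets of Polycomb repression, had one-sided shares whose intervals held the 10.1% of all genes. Of 8 Hox genes, only Dfd had a one-sided peak (12.5%, 2.24 to 47.1), at -235 bp from its start and rank 2365. It had a signal of 78.7 in replicate 3 and no summit within 100 bp in replicate 4. Of 51 segmentation and patterning factors, 5 had one (9.80%, 4.26 to 21.0), all upstream: bowl (rank 172, -214 and -160 bp in replicates 3 and 4), bcd (rank 1740, -186 and -183 bp), grn (rank 2100, -139 and -161 bp), Dll (rank 2728, -108 and -126 bp) and so (rank 3785, -307 bp by pooled reads). Neither list had a gene at a both-strand peak. Of 179 chemosensory receptor genes 0 had a one-sided peak, which allows a share of up to 2.10% by the Wilson interval, and of 119 cuticle protein genes 0 did, which allows up to 3.13%. In the strongest entries of replicate 4 alone, 1 cuticle gene had one.

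**Figure D5:**
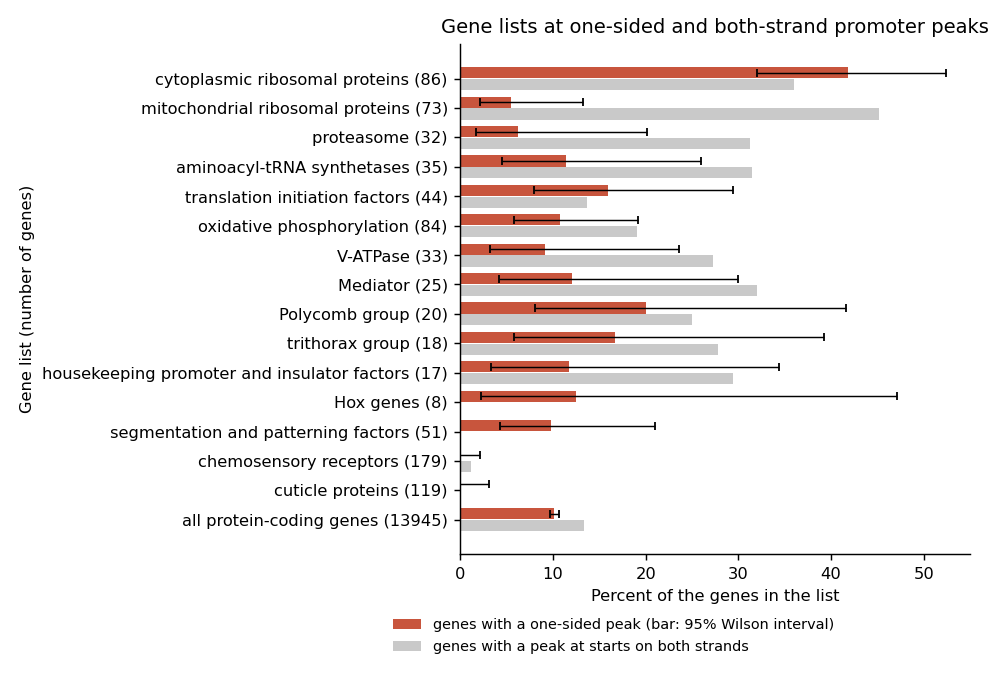
Percent of the genes in each list with a one-sided peak (upper bar, with 95% Wilson interval) and with a peak at starts on both strands (lower bar). Cytoplasmic ribosomal proteins reach 41.9% at one-sided peaks, beside 10.1% of all protein-coding genes, and mitochondrial ribosomal proteins 5.48%.

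The members just inside the 500 bp limit were at RhoGAP68F (offset 498 bp, rank 3177), CG42331 (-498 bp, rank 2161) and CG17896 (-497 bp, rank 40). The peaks just outside were at CASK, CG3638 and CrebA (-502, -503 and -504 bp, ranks 3412, 1749 and 1156). In replicates 3 and 4 the summit at CG17896 had offsets of -503 and -509 bp, past the limit. On the other strand, the nearest start was 502 bp from the summit at Tgi and 506 bp at CG13058 and ecd, which counted as one-sided. It was 500 bp away at Hers, 495 bp at Noc2 and 492 bp at slv, which counted as both-strand.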

How the data were processed

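The 2 libraries are biological replicates of 1 group, so no comparison between groups was possible. Per the texts deposited with the lists, peaks were called against 1 shared control and the optimal list passed an irreproducible discovery rate cutoff; the names of aligner and caller were not given in the sources used here. The unit is the signal value per peak that the authors deposited, used only to rank peaks within a list; the files hold no read counts. Peak lists on dm6 were used, with Ensembl release 115 gene models (13945 protein-coding genes, 19253 distinct starts on 6 arms), on a genome whose arm lengths matched the RefSeq sequence. Coordinates are 1-based. The nearest start set the gene, the offset and whether it was the first start of the gene; genes tied for it at 33 peaks. A replicate's summit was matched within 100 bp. Intervals are 95% Wilson intervals. Quintiles by rank, words and lists are described by counts and medians without a test. Python 3.11.15, pandas 2.3.3, numpy 2.4.6 and matplotlib 3.10.9 were used, and the assignment of starts was tested on simulated data.

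Members and lists were chosen with earlier results of these data known. Genes were named by rule: the 25 strongest one-sided peaks, the 5 strongest at an alternative start, genes with the most peaks (at most 6), the 3 strongest with each of 5 words, the 3 peaks nearest inside and outside 500 bp, the strongest of each annotation class, and per list up to 4 genes with and 2 without a peak. RpL26, CrebB, Hsp27, Fhos and CG8036, shown for their sequence, Hers, Noc2, slv, Tgi, CG13058, ecd and the gene named so fall outside that rule or were taken next in rank. The pattern for cuticle genes was corrected after it was seen to match a cytochrome reductase gene, and 4 list symbols (Zw5, Pita, h and otd) found no match and were not used here. Alternatives were other windows, each replicate alone, the strongest 2146 peaks, merged regions, all transcripts and RefSeq models.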

Additional observations from a re-analysis of the deposited data

How the results depend on the processing

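No paired analysis was possible because there is 1 group. Of 85 alternative values 44 moved by less than the spread between the replicates' values (counts by under 1.5 times) and 41 by more. A change of direction could be seen only for the median offset, the rank difference and the difference between quintiles, and none of these changed sign. For counts and shares it is not defined. RefSeq gene models gave 1414 genes in place of 1415 and otherwise equal values. With the strongest 2146 peaks there were 782 one-sided peaks at 734 genes, 56.7% of promoter peaks were one-sided, 87.5% were upstream at a median of -128.5 bp, 67.0% were at the first start, and one-sided peaks ranked 45.5 below both-strand ones, against 392 in all (a list with fewer ranks). A window of 250 bp gave 71.9% one-sided, a median of -69 bp, a rank difference of 583.5 and 75% at the first start, and 1000 bp gave 58.5%, 75.3% upstream, -108 bp, 295 and 64.4%. Starts of all transcripts gave 59.1% one-sided and 69.7% at the first start, merged regions 69.0% at the first start, and peaks with 1 start in the window a median of -119 bp. Leaving out either replicate gave 1564 to 1575 peaks at 1402 genes in both cases, 61.2% to 62.4% one-sided, 76.8% to 81.3% upstream, medians of -98 to -86 bp, rank differences of 370 to 427 and 67.4% to 68.2% at the first start. The strongest quintile by rank lay 103 bp farther upstream than the weakest (-103 bp), and, in alternatives chosen after seeing the data, -114.5 bp with 1 start in the window, -130 bp at alternative starts and -119 to -106.5 bp in the strongest entries of 1 replicate alone. With the same peaks ranked by replicate 3 it was -106.5 bp by that replicate's summits and -112 bp by those of replicate 4; ranked by replicate 4 it was -77 bp by the summits of replicate 3 and -80 bp by its own. Of 16 alternative values for word shares 11 moved. The cause of these shifts was not tested. Depth is unknown, so it sets no limit here that could be given.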

Other observations

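Past the optimal list, the weaker entries of the list from pooled reads (ranks 4294 to 30000), which hold peaks and background, had 5717 summits at one-sided promoters. Of these 51.2% were upstream (49.9 to 52.5), at a median offset of -5 bp. By rank, from 4294 to 9000, 9001 to 15000, 15001 to 22000 and 22001 to 30000, the upstream share was 60.7%, 50.5%, 47.6% and 44.7% and the median offset was -37.5, -2, 18 and 30 bp. The optimal one-sided peaks had 80.9% upstream.

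The gene next upstream of the start lay on the same strand at 838 of the one-sided peaks (53.2%), a median of 571.5 bp away, and on the opposite strand at 580 (36.8%), a median of 1841 bp away. The rule for one-sided peaks leaves out peaks with a coding start on the other strand within 500 bp of the summit. It sets no such limit on the same strand, so the counts and distances of the strands are not on a like basis. At 156 (9.91%) the start lay inside another gene. The median offset was -90.5, -91.5 and -133.5 bp in these classes and the median rank 2155, 2166 and 2200.5. A coding start on the other strand was 501 to 1000 bp away at 210 peaks (13.3%), and a noncoding start on the other strand lay within 500 bp at 110 (6.99%).

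GAGAG, the core of the site of the GAGA factor, was at 12.1% of one-sided summits (10.6 to 13.8), against 7.80% of both-strand summits (6.29 to 9.64), 15.1% of upstream flanks and 18.6% of downstream flanks. CAGCTG was at 6.67%, against 6.99%, 4.45% and 5.78% in the same order. CACGTG, the site of Myc and related factors, was at 1.59%, against 1.32%, 1.33% and 1.97%. All genes' windows centred at -96 bp from the first start held the 3 words at 13.3%, 5.26% and 0.990%. Summits with no coding start held TATCGATA at 5 of 1732 (0.289%) and GGTCACACT at 1 (0.0577%).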
